A study of Bos taurus with 12 samples.

Results

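CNTNAP4, RNASE4, SRL, PATJ, B4GALT6 and TRPM6 are 6 of the 18087 genes that a probe set with a single symbol represents on a bovine whole-transcript array. They were chosen because their signal differed between 2% and 21% oxygen in mesenchymal stem cells (MSCs), as genes in which this was not expected. None of them is in the list of known hypoxia targets used here, and published lists of hypoxia genes were not searched. Each had 1 probe set, so that no choice between probe sets was needed. Because the oxygen difference itself chose the genes, it is given here as a description with no test, and tests are kept for the response to TGF-β3, for differences between donors and for other genes.

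The cells were MSCs, multipotent stromal cells, taken from femur and tibia marrow of 3 juvenile cattle (under 6 months old) and first grown at 21% oxygen in medium with serum. They were then expanded for 1 week in 1 of 4 conditions, which were 21% oxygen (normoxia) or 2% oxygen (hypoxia), without TGF-β3 or with it at 10 ng/mL. TGF-β3 is a growth factor of the TGF-β family that drives MSCs towards cartilage. Every donor was cultured in each condition, which gave 12 arrays of 3 donors × 4 conditions. All values are log2 signals, and a difference of 1 is a 2-fold change.

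When oxygen falls, the hydroxylases that mark the alpha subunits of the hypoxia-inducible factors (HIF) for degradation slow down, and HIF then switches on genes of glucose uptake, glycolysis, pH control and vessel growth. The 6 genes come from elsewhere in cell biology. CNTNAP4 encodes a transmembrane adhesion protein of the neurexin superfamily, known from synapses. RNASE4 encodes a secreted ribonuclease, and in human and mouse it shares its promoters with the angiogenin gene ANG. SRL encodes sarcalumenin, a calcium-binding glycoprotein in the lumen of the sarcoplasmic reticulum of striated muscle. PATJ encodes a scaffold protein with many PDZ domains that joins the Crumbs polarity complex at epithelial tight junctions. B4GALT6 encodes a Golgi galactosyltransferase that makes lactosylceramide, the precursor of most gangliosides, and TRPM6 encodes a magnesium-permeable channel with a kinase domain, known from kidney and intestine.

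Array medians lay between 6.59 and 6.66 and first quartiles between 4.89 and 4.98. Of 12 mesenchymal stromal markers, 10 were above the array median on all 12 arrays, among them ENG, THY1 and CD44, while VCAM1 and LEPR were below the first quartile on all 12. Of the markers of other cells, CD14, ACTN3 and KRT5 were above the median on all 12 arrays, as 1 of 6 haematopoietic, 1 of 12 skeletal muscle and 1 of 9 epithelial markers, and none of 9 neural or 5 endothelial markers was. In RNA from whole cultures, fewer cells of a type and less RNA per cell cannot be told apart. Over all 26773 probe sets, limma called 1 for oxygen without TGF-β3 (0.00374%, adjusted p under 0.05), and 0 when any 1 donor or the dim probe sets were left out. With TGF-β3 it called 0 (0%). At an unadjusted p under 0.05 it counted 1447 (5.40%) and 1152 (4.30%). A fit that blocks on donor called 3 without TGF-β3 (0.0112%; 0.00747% higher and 0.00374% lower) and 6 with it (0.0224%, all higher). Whether the 6 genes are among these calls is no evidence about them, since the same differences chose them.

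Relative to 21% oxygen, CNTNAP4, RNASE4, SRL and PATJ were higher and B4GALT6 and TRPM6 lower at 2% in each donor, both without and with TGF-β3. All 6 genes thus had 1 direction in 6 of 6 within-donor differences, as did 9.40% of all probe sets (4.86% higher and 4.55% lower). The arrays at 2% and 21% did not overlap for 6 of 6 genes without TGF-β3, where 11.0% of probe sets were apart (5.50% higher and 5.53% lower), and for 5 of 6 with it, where 8.60% were (4.40% higher and 4.20% lower). The same 5 genes were apart in both settings, as were 1.30% of probe sets. Since the genes were picked on these values, nothing is read from the shares.

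**Figure D1:**
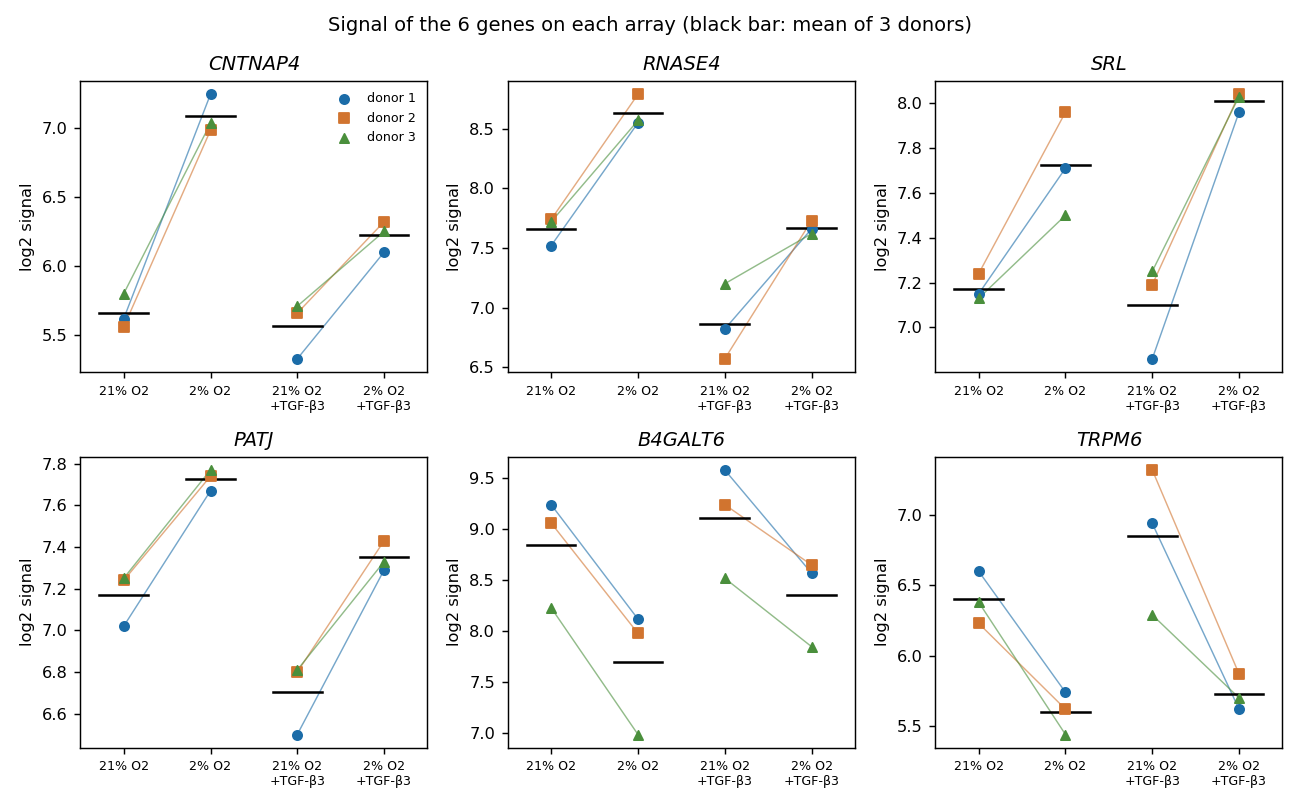
Log2 signal (vertical axis) of each of the 6 genes on all 12 arrays by condition (horizontal axis), with 1 symbol per donor, lines joining the arrays of a donor at 21% and 2% oxygen, and black bars for the mean of 3 donors. CNTNAP4, RNASE4, SRL and PATJ lie higher and B4GALT6 and TRPM6 lower at 2% oxygen, and B4GALT6 is lowest in donor 3 in every condition.

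CNTNAP4 had the largest oxygen difference of the 4 higher genes without TGF-β3. Its signal at 21% oxygen was 5.62, 5.56 and 5.80 in donors 1, 2 and 3, and at 2% it was 7.24, 6.98 and 7.03. With TGF-β3 the values were 5.33, 5.66 and 5.71 at 21%, and 6.10, 6.32 and 6.25 at 2%. The groups were apart in both settings, and the 3 arrays at 2% without TGF-β3 stood above all others. They were also the only arrays on which CNTNAP4 passed the array median, while none of the 12 fell below the first quartile. The values at 21% oxygen are thus dim, and whether they exceeded background was not tested. The within-donor difference was 1.42 ± 0.196 (SD, n = 3; 2.69-fold) without TGF-β3 and 0.66 ± 0.116 (n = 3; 1.58-fold) with it. Among the 18087 symbols it ranked 6 and 65 by the size of a positive difference. The means fell in the order 2% without TGF-β3 (7.08), 2% with it (6.22), 21% without (5.66) and 21% with (5.57), and the ranges of the latter pair overlapped.

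RNASE4 was higher at 2% oxygen by a similar amount in both settings. At 21% oxygen without TGF-β3 its signal was 7.52, 7.74 and 7.72 in donors 1, 2 and 3, against 8.55, 8.79 and 8.57 at 2%. With TGF-β3 it was 6.82, 6.57 and 7.20 at 21%, against 7.66, 7.73 and 7.62 at 2%. In both settings the mean shift was larger than the span between donors within a condition, and the groups were apart. With TGF-β3 the shift of donor 3, 0.42, was smaller than the span from 6.57 to 7.20 at 21%. The within-donor difference was 0.97 ± 0.11 (n = 3; 1.96-fold, rank 31) without TGF-β3 and 0.80 ± 0.371 (n = 3; 1.75-fold, rank 37) with it. RNASE4 had its highest mean at 2% without TGF-β3 (8.63) and its lowest at 21% with TGF-β3 (6.86). The 2 conditions in between, 2% with TGF-β3 (7.67) and 21% without (7.66), overlapped.

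In the gene order of the RefSeq assembly ARS-UCD2.0, ANG and ANG2, a second angiogenin gene, overlap the annotated span of RNASE4. Whether probes or transcripts of the 3 genes are shared is not given in the sources used here, so their signals may not be independent. ANG was dim, at 4.21, 4.80 and 4.67 in donors 1, 2 and 3 at 21% without TGF-β3 and 5.30, 5.45 and 5.44 at 2%. With TGF-β3 it was 3.99, 4.09 and 4.51 at 21% and 4.22, 4.35 and 4.42 at 2%, and on 9 of 12 arrays it lay below the first quartile. The 3 arrays at 2% without TGF-β3 stood above the rest, and the other 3 conditions overlapped. In limma the oxygen difference of ANG was 0.84 ± 0.16 (SE; adjusted p = 0.341, which the alternatives moved to between 0.113, from the donor-blocked fit, and 1.0) without TGF-β3 and 0.13 ± 0.16 (adjusted p = 1.0) with it. The test of the difference between the settings, added after the values were seen, gave -0.71 ± 0.23 (limma interaction, adjusted p = 1.0). ANG2 differed by 0.47 ± 0.14 (adjusted p = 0.787) and 0.29 ± 0.14 (adjusted p = 1.0). RNASE6, the next gene on one side, differed by -0.05 ± 0.19 and 0.04 ± 0.19, and neither difference was called.

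**Figure D2:**
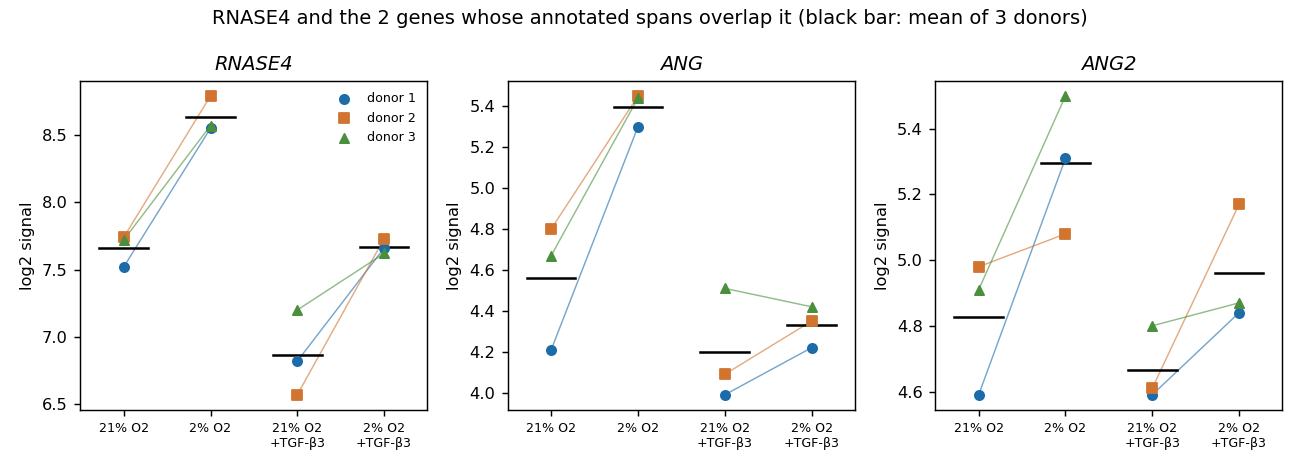
Log2 signal (vertical axis) of RNASE4, ANG and ANG2 on all 12 arrays by condition (horizontal axis), with 1 symbol per donor, lines joining the arrays of a donor, and black bars for the mean of 3 donors. RNASE4 is higher at 2% oxygen without and with TGF-β3, whereas the 3 arrays of ANG at 2% without TGF-β3, between 5.30 and 5.45, lie above all its others.

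SRL differed more with TGF-β3 than without it. Its signal without TGF-β3 was 7.15, 7.24 and 7.13 in donors 1, 2 and 3 at 21% oxygen and 7.71, 7.96 and 7.50 at 2%. With TGF-β3 the arrays at 21% gave 6.86, 7.19 and 7.25 and those at 2% gave 7.96, 8.04 and 8.03. The arrays at 2% were above those at 21% in both settings, and the gap was 0.27 without and 0.71 with TGF-β3. The within-donor difference was 0.55 ± 0.173 (n = 3; 1.47-fold, rank 162) without TGF-β3 and 0.91 ± 0.161 (n = 3; 1.88-fold, rank 23) with it. The 2 conditions at 2% oxygen overlapped each other, as did the 2 conditions at 21%.

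PATJ was higher at 2% oxygen by similar amounts in all donors and both settings. Without TGF-β3 its signal was 7.02, 7.24 and 7.25 in donors 1, 2 and 3 at 21% oxygen and 7.67, 7.74 and 7.77 at 2%. With TGF-β3 it was 6.50, 6.80 and 6.81 at 21% and 7.29, 7.43 and 7.33 at 2%. The 4 conditions did not overlap at all, in the order 2% without TGF-β3 (7.73), 2% with it (7.35), 21% without (7.17) and 21% with (6.70). The within-donor difference was 0.56 ± 0.081 (n = 3; 1.47-fold, rank 154) without TGF-β3 and 0.65 ± 0.134 (n = 3; 1.57-fold, rank 68) with it.

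B4GALT6 had the most negative oxygen difference of all 18087 symbols without TGF-β3, although its donors stood far apart. At 21% oxygen its signal was 9.24, 9.06 and 8.23 in donors 1, 2 and 3, and at 2% it was 8.12, 7.98 and 6.99. With TGF-β3 it was 9.58, 9.24 and 8.52 at 21% and 8.57, 8.65 and 7.85 at 2%. The arrays at 2% and 21% were apart by 0.11 without TGF-β3 and overlapped with it, where donor 3 at 21% (8.52) was below donors 1 and 2 at 2%. Within donors the difference was -1.15 ± 0.082 (n = 3; 2.22-fold lower, rank 1 among negative differences) without TGF-β3 and -0.76 ± 0.224 (n = 3; 1.69-fold lower, rank 7) with it. Adjacent conditions in the order of means, from 9.11 at 21% with TGF-β3 through 8.84 and 8.36 to 7.69 at 2% without it, overlapped in each case.

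TRPM6 had the most negative oxygen difference of all symbols in the presence of TGF-β3. Its signal without TGF-β3 was 6.6, 6.23 and 6.38 in donors 1, 2 and 3 at 21% oxygen and 5.74, 5.62 and 5.44 at 2%. With TGF-β3 the arrays at 21% gave 6.94, 7.32 and 6.29 and those at 2% gave 5.62, 5.87 and 5.70. All 6 arrays at 2% were below all 6 at 21%, and the spread was widest at 21% with TGF-β3, where donor 3 was low. The within-donor difference was -0.80 ± 0.171 (n = 3; 1.74-fold lower, rank 7) without TGF-β3 and -1.12 ± 0.464 (n = 3; 2.17-fold lower, rank 1) with it, and donor 3 had the smallest of the latter, at -0.59. TRPM6 passed the array median on 2 of 12 arrays, so the lower values are dim, and whether they exceeded background was not tested.

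**Figure D3:**
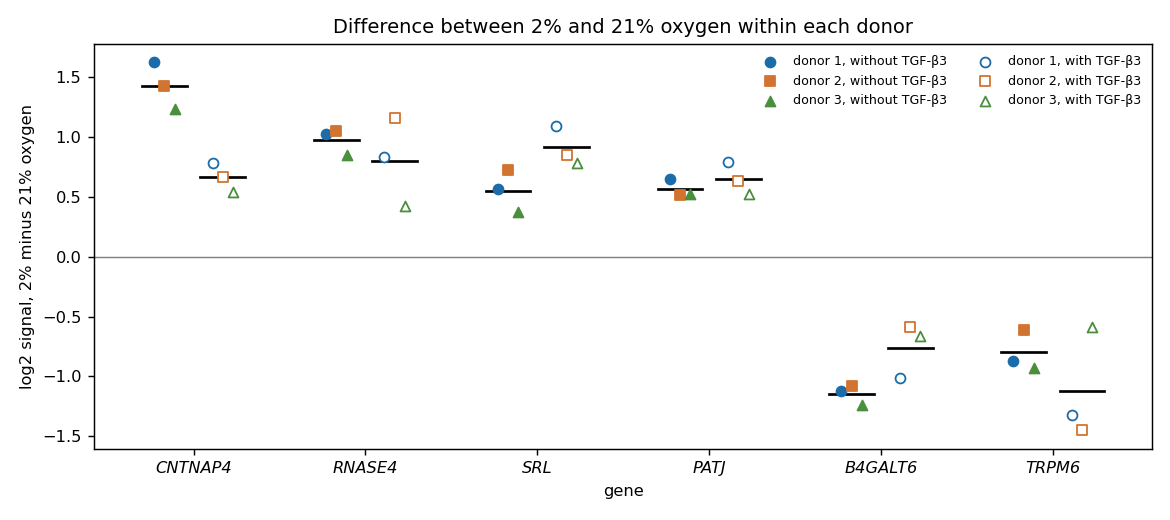
Difference in log2 signal between 2% and 21% oxygen (vertical axis) within each donor for the 6 genes (horizontal axis), filled symbols without and open symbols with TGF-β3, and black bars for the mean of 3 donors. All 36 points lie on the side that their gene was chosen for, between 0.37 and 1.62 for the higher genes and between -1.45 and -0.59 for the lower ones.

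The oxygen difference with TGF-β3 minus that without it was -0.77 ± 0.17 (SE from limma) for CNTNAP4, 0.36 ± 0.18 for SRL, 0.39 ± 0.53 for B4GALT6, -0.31 ± 0.30 for TRPM6, -0.17 ± 0.20 for RNASE4 and 0.09 ± 0.15 for PATJ. These are descriptions, since both terms chose the genes. The limma fit behind these SEs has no donor term, so they hold the spread between donors, which was wide for B4GALT6. The 3 within-donor differences without and with TGF-β3 were apart for CNTNAP4 (1.23 to 1.62 against 0.54 to 0.78), SRL (0.37 to 0.72 against 0.78 to 1.09) and B4GALT6 (-1.24 to -1.08 against -1.01 to -0.59), and overlapped for RNASE4, PATJ and TRPM6. The gaps of SRL (0.72 against 0.78) and B4GALT6 (-1.08 against -1.01) were narrow. The share of all probe sets apart in this way was not counted, so nothing is read from these separations. Over all probe sets, limma called no interaction (0%), with 787 (2.94%) at an unadjusted p under 0.05 and none called with donor as a block.

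The response to TGF-β3, averaged over both oxygen tensions, is not part of the oxygen differences that chose the genes. Earlier results of these data were known at that choice, so its independence from the TGF-β3 response is not assured. RNASE4, CNTNAP4 and PATJ fell with TGF-β3, and the other 3 genes were not called. In limma, 3 of 6 genes were thus called, all lower, where 9.64% of all probe sets were called (4.65% higher and 4.99% lower). RNASE4 fell by 0.88 ± 0.10 (SE; adjusted p = 0.000328) and was lower in 6 of 6 within-donor differences, a constancy of direction that 19.3% of all probe sets had, with means of -0.80 at 21% oxygen and -0.97 at 2%. Its call held under each of 21 alternatives. PATJ fell by 0.42 ± 0.073 (adjusted p = 0.00439), also in 6 of 6, with differences between -0.51 and -0.31. The call of PATJ was lost without donor 2 (adjusted p = 0.0849) or donor 3 (0.0575), and over the alternatives its adjusted p lay between 0.000857 and 0.0849.

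CNTNAP4 fell by 0.48 ± 0.086 (adjusted p = 0.00536), in 5 of 6 within-donor differences. This average joins unlike values, a mean of -0.09 at 21% oxygen, where donor 2 was higher by 0.11, and of -0.86 at 2%, where donors 1, 2 and 3 differed by -1.13, -0.66 and -0.79. CNTNAP4 was dim at 21% oxygen, and whether background limited the difference there was not tested. The call was lost without donor 1 (adjusted p = 0.0796) or donor 2 (0.056), and the adjusted p lay between 0.00263 and 0.0796 over the alternatives. Selection through a small spread between arrays also favours calls in other contrasts of the same arrays, which bears on all 3 genes. SRL differed by 0.11 ± 0.089 (adjusted p = 0.565), with donors on both sides of 0 at 21% oxygen. B4GALT6 differed by 0.47 ± 0.27 (adjusted p = 0.357) and was higher with TGF-β3 in 6 of 6 within-donor differences. The donor-blocked fit gave it an SE of 0.068 and called it (adjusted p = 0.00175, against 0.624 at most under the other alternatives). That fit called 14.8% of all probe sets (7.30% higher and 7.47% lower) and 4 of the 6 genes. TRPM6 differed by 0.29 ± 0.15 (adjusted p = 0.307), with donor 2 at 21% oxygen (1.09) far above the other differences. Without the array of donor 3 at 21% with TGF-β3 it would be called (0.43, adjusted p = 0.0294, against 0.853 at most under other alternatives).

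**Figure D4:**
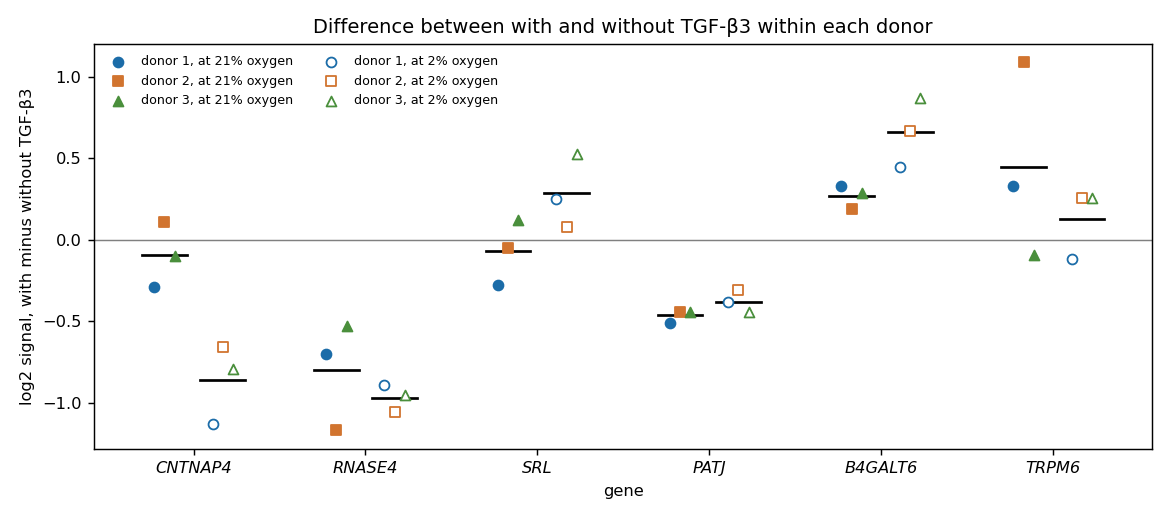
Difference in log2 signal between cultures with and without TGF-β3 (vertical axis) within each donor for the 6 genes (horizontal axis), filled symbols at 21% and open symbols at 2% oxygen, and black bars for the mean of 3 donors. RNASE4 and PATJ lie below 0 and B4GALT6 above 0 at all 6 points, while CNTNAP4 is near 0 at 21% and between -1.13 and -0.66 at 2% oxygen.

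Beside these TGF-β3 values, limma called 5 of 12 mesenchymal stromal markers lower with TGF-β3 and none higher. Over all probe sets 4.99% were called lower and 4.65% higher. With donor as a block 6 of these markers fell and 0 rose. The summed linear signal of the 12 markers was 37300 to 38990 at 21% and 36940 to 40490 at 2% without TGF-β3, against 27670 to 31040 and 29470 to 32520 with it. The endothelial adhesion gene PECAM1 was the 1 of 5 endothelial markers that rose with TGF-β3, and the summed signal of the 5 went from 243.6 to 257.5 and 261.2 to 279.6 without TGF-β3 to 408.1 to 569.8 and 446.2 to 639.3 with it. Their part in the results was not tested. In the oxygen contrasts no marker of any list was called by limma or with donor as a block, and at an unadjusted p under 0.05 2 markers of all lists were counted without TGF-β3 and 3 with it. The summed signals of the mesenchymal, haematopoietic, muscle, neural and epithelial lists overlapped between 21% and 2% oxygen in both settings. The endothelial sum without TGF-β3 did not, being higher at 2%, and its part in the oxygen differences was not tested.

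Donors differed for 1 of the 6 genes. B4GALT6 had means over the 4 conditions of 8.88, 8.73 and 7.90 in donors 1, 2 and 3, and donor 3 was the lowest in each condition (limma F-test with condition in the fit, adjusted p = 0.000508). Over all probe sets 4.53% passed that test. The donor means of the other 5 genes spanned between 0.13 (CNTNAP4) and 0.31 (TRPM6), with adjusted p-values between 0.2 and 0.732. For PATJ donor 1 was the lowest in every condition, within a span of 0.18.

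The relatives of the 6 genes had smaller oxygen differences than the genes themselves, with the exception of PLN (0.57) beside SRL (0.55) without TGF-β3. Because oxygen differences chose the 6 genes, this order is built in, and the values are given as descriptions. CNTNAP1, CNTNAP2, CNTNAP3 and CNTNAP5, the other contactin-associated proteins, differed by 0.02 to 0.09 without and by 0.00 to 0.15 with TGF-β3. In all, 13 measured contactin-associated proteins, contactins, neurexins and NFASC had medians of 0.03 and 0.05, beside medians of 0.00 over all probe sets. The luminal calcium-binding calsequestrins CASQ1 (-0.30 ± 0.24 and -0.06 ± 0.24) and CASQ2 (-0.06 ± 0.10 and 0.01 ± 0.10) were not higher at 2% as SRL was, and 26 calcium handling genes of the sarcoplasmic or endoplasmic reticulum had medians of -0.03 and -0.01. MPDZ, the closest paralogue of PATJ, differed by 0.02 ± 0.12 and 0.05 ± 0.12, and PALS1, which links PATJ to Crumbs, by -0.09 ± 0.094 and -0.17 ± 0.094, among 23 polarity genes with medians of -0.04 in both settings. B4GALT5, which catalyses the same step as B4GALT6, differed by -0.04 ± 0.14 and 0.00 ± 0.14, among 21 glycosphingolipid genes with medians of 0.00 and 0.03. TRPM7, the ubiquitous relative of TRPM6, differed by -0.10 ± 0.096 and 0.06 ± 0.096, among 22 TRPM channel and magnesium transport genes with medians of 0.04 and 0.07.

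Neither limma nor the fit with donor as a block called any other gene of these 6 lists, the RNase A list included (10 other genes, medians 0.09 and 0.07), for oxygen in either setting. At an unadjusted p under 0.05 the counts without TGF-β3 were 2 for the RNase A list, 1 each for the calcium, polarity and TRPM lists, and 0 for the others. With TGF-β3 they were 1 each for the calcium and polarity lists and 0 for the others. A missed call in this design does not show that these genes were unaffected.

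**Figure D5:**
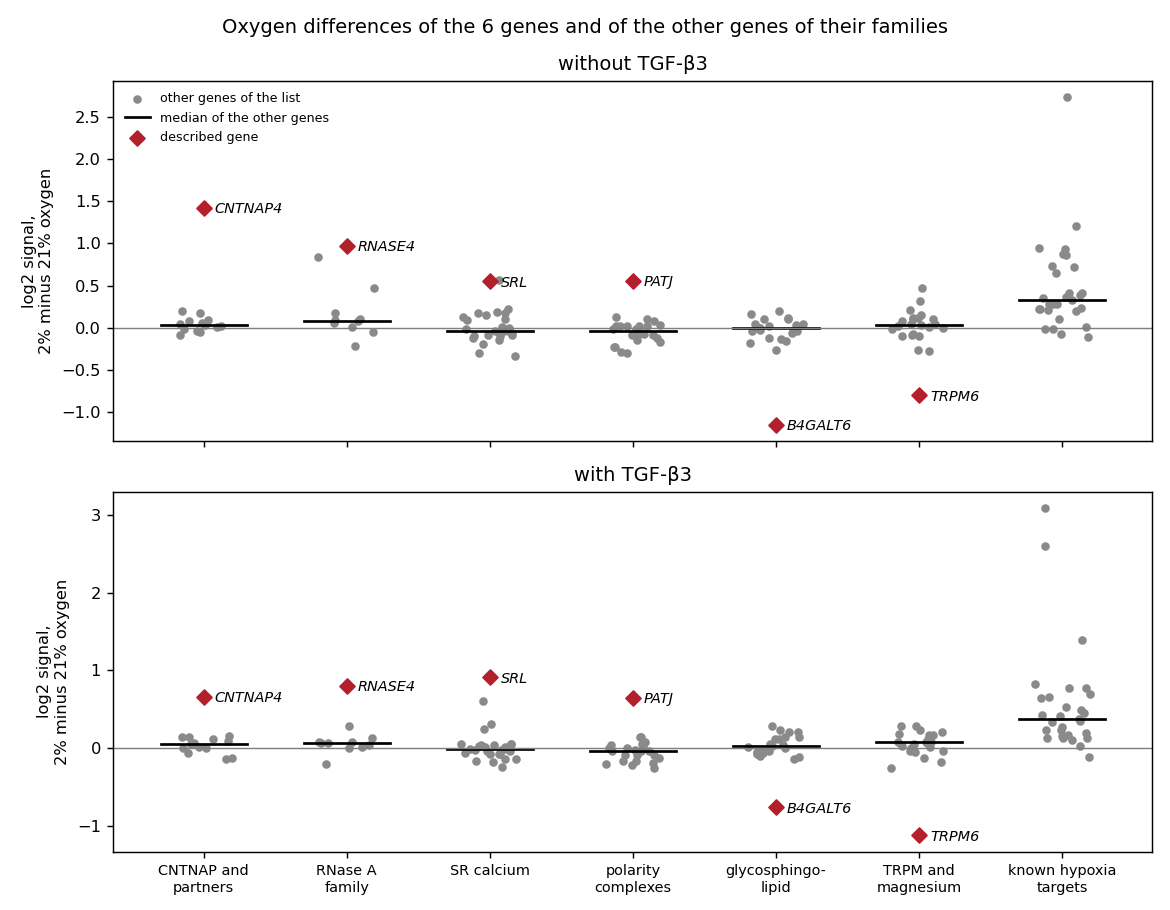
Difference in log2 signal between 2% and 21% oxygen (vertical axis), as the difference of group means, without TGF-β3 (top) and with it (bottom), for the 6 genes (red diamonds), the other measured genes of their families (grey points, black bars for medians) and 29 known hypoxia targets. The 6 genes stand at the edge of their own family in both panels, apart from SRL, which PLN matches without TGF-β3 at 0.57, while the known targets have medians of 0.33 and 0.37. The 6 genes were chosen for these differences, so their place at the edge is built in.

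With TGF-β3, for which 9.64% of all probe sets were called, genes of several of these lists were called too, and the counts below are descriptions beside that share. The median TGF-β3 difference was -0.03 in the glycosphingolipid list, 0.00 in the polarity list, -0.11 in the RNase A list and 0.02 in the calcium list, beside 0.01 over all probe sets. In the glycosphingolipid list 4 of 21 other genes rose and 4 fell in limma, against 4 and 5 with donor as a block. ST3GAL5, which adds sialic acid to the lactosylceramide that B4GALT6 makes, rose by 0.85 ± 0.12 (adjusted p = 0.00128), and B3GNT5, which extends lactosylceramide with N-acetylglucosamine, rose by 0.56 ± 0.11. The lysosomal galactosidase gene GLB1 fell by 0.52 ± 0.11 and the glycolipid transfer protein gene GLTP by 0.49 ± 0.086. ST3GAL5 lost its call without donor 1, B3GNT5 and GLB1 without donor 2 or 3, and GLTP without donor 1 or 2.

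In the polarity list 3 of 23 other genes rose with TGF-β3 and 4 fell, against 4 and 5 with donor as a block. The angiomotin gene AMOT, whose product binds PATJ, fell by 0.83 ± 0.079 (adjusted p = 0.000102), and the Scribble complex scaffold DLG1 by 0.90 ± 0.13 (adjusted p = 0.00161). PARD3B fell by 0.66 ± 0.17 (adjusted p = 0.0354), a call lost in 10 of 21 alternatives, and the atypical protein kinase C gene PRKCI rose by 0.40 ± 0.054 (adjusted p = 0.000981). AMOT and PRKCI kept their calls in all 21 alternatives, and DLG1 lost its call without donor 2.

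Of the RNase A list, ANG was the 1 of 10 other genes called, and it fell by 0.72 ± 0.12 (adjusted p = 0.00279) beside the fall of RNASE4. This average joins unlike values of ANG, a mean of -0.37 at 21% oxygen, where the groups overlapped, and of -1.07 at 2%. ANG was lower with TGF-β3 in 6 of 6 within-donor differences, and without donor 2 its call was lost (adjusted p = 0.101, the highest of its alternatives, from 0.000514). With donor as a block 1 gene of that list rose and 2 fell. In the calcium list ORAI3, a store-operated calcium channel subunit, fell by 0.38 ± 0.074, as the 1 of 26 called, against 3 up and 2 down with the block. That call was lost without any 1 of the 3 donors. The single calls of the RNase A and calcium lists are about as many as, or fewer than, the share over all probe sets would give. The contactin-associated list held no call for TGF-β3 in either fit and 0 at an unadjusted p under 0.05. The TRPM and magnesium list held none without the block, with 2 up and 3 down at an unadjusted p under 0.05, and 2 up and 1 down with the block.

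Known hypoxia targets show the scale on which the 6 genes differed. Of 29 measured targets, 15 had arrays at 2% wholly above those at 21% without TGF-β3 and 16 with it, and none had them wholly below, where 5.50% and 4.40% of all probe sets were wholly above. None was called for oxygen by limma in either setting or with donor as a block, while 16 and 17 were higher at an unadjusted p under 0.05 and 0 lower. The median difference was 0.33 without TGF-β3 and 0.37 with it. PDK1, the pyruvate dehydrogenase kinase, differed by 0.65 ± 0.17 and 0.77 ± 0.17, VEGFA by 0.33 ± 0.12 and 0.37 ± 0.12, and NDRG1 by 0.41 ± 0.15 and 0.53 ± 0.15. The carbonic anhydrase gene CA9 differed by 1.21 ± 0.45 and 2.60 ± 0.45, ANKRD37 by 0.93 ± 0.26 and 0.70 ± 0.26, and the HIF hydroxylase EGLN3 by 0.39 ± 0.17 and 0.23 ± 0.17. Each of these 6 was higher at 2% in 3 of 3 donors in both settings.

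Among the 29 targets, 1 had a larger oxygen difference than CNTNAP4 without TGF-β3, the mitochondrial NDUFA4L2 (2.73 ± 0.66, named after its value was seen), and 8 had one with it. For RNASE4 these counts were 2 and 4, for B4GALT6 2 and 6, for TRPM6 6 and 3, for SRL 9 and 3, and for PATJ 9 and 8, by size regardless of direction. Since the 6 genes were chosen for their oxygen differences, low counts are built in, and nothing is read from them. For TGF-β3, limma called 12 of the 29 targets higher, SLC2A1 (1.28 ± 0.12, adjusted p = 7.37e-05) and STC2 (0.88 ± 0.24) among them, and 3 lower, ADM (-1.01 ± 0.24) among them. Over all probe sets 4.65% were called higher and 4.99% lower. The median TGF-β3 difference was 0.2 in this list, beside 0.01 over all probe sets. CA9 rose by 1.18 ± 0.32. SLC2A1 kept its call in all 21 alternatives, and CA9, ADM and STC2 lost theirs without donor 1 or donor 2, CA9 also without donor 3, and on leaving out several single arrays.

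The genes with the most similar profile to each of the 6 were sought among 18086 other symbols by Pearson's r over the 12 arrays after donor means were subtracted. The arrays share donors and conditions, and r is given as a description. PATJ was nearest to the glycolytic pyruvate kinase gene PKM (r = 0.985), FAH (0.964) and GALNT5 (0.958). RNASE4 was nearest to PRDM8 (0.978), ZBTB1 (0.96) and PRSS23 (0.958), and SRL to the hyaluronan synthase gene HAS2 (0.96), CPNE8 (0.954) and SMOX (0.953). PKM differed by 0.17 ± 0.066 and 0.20 ± 0.066 with oxygen, so that a profile may be alike in shape and smaller in size.

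CNTNAP4 was nearest to the homeobox gene DLX4 (0.978), OR7A91 (0.956) and DNALI1 (0.947). OR7A91 was very dim, at 2.82 to 3.4, below the first quartile of every array. The lowest r of CNTNAP4 with any symbol was with B4GALT6 (-0.962), and that of B4GALT6 was with PKM (-0.964), both looked up after the values were seen. B4GALT6 was nearest to the citric acid cycle gene SUCLG1 (0.959), FNIP2 (0.951) and RPL10L (0.939). RPL10L was dim too, at 4.34 to 5.25. TRPM6 was nearest to the pyruvate dehydrogenase phosphatase gene PDP2 (0.966), ZNF771 (0.943) and RXYLT1 (0.94). Without subtraction of donor means, TRPM6 kept 2 of its 3 nearest genes, RNASE4 kept 1 and the others kept 0.

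The genes next to each of the 6 in the RefSeq order had smaller oxygen differences, and none was called. That they were smaller is built in, since oxygen differences chose the 6 genes. The nearest measured protein-coding genes on either side, with those that overlap and the relatives above, made 25 genes, of which limma called 0 in either setting and under none of 21 alternatives, and 5 and 0 had an unadjusted p under 0.05. Their differences ranged from -0.57 to 0.84 without TGF-β3 and from -0.20 to 0.29 with it. The lowest was TTR, which follows B4GALT6 in gene order (-0.57 ± 0.18, adjusted p = 0.835), and the highest was ANG. TRAPPC8, before B4GALT6, differed by -0.10 ± 0.082 and -0.01 ± 0.082. RORB and C8H9orf40, on either side of TRPM6, differed by -0.10 ± 0.10 and -0.21 ± 0.11 without TGF-β3, and TERF2IP and MON1B, around CNTNAP4, by -0.05 ± 0.12 and -0.10 ± 0.097.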

How the data were processed

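Total RNA was hybridised to 12 bovine Affymetrix arrays, and donor and condition were taken from the array titles. Per the labels, the authors applied RMA (robust multi-array average) to the arrays, with Partek 6.6 among the tools in the submitters' processing notes. The deposited values were taken as log2 signals from their range. Filters and the probe library are not given in those sources. Of 26773 probe sets, 18550 carried 1 symbol in the platform annotation, 595 several and 7628 none. A cell that repeats 1 symbol counted as 1. The probe set with the highest mean stood for a gene. The RefSeq gene table (ARS-UCD2.0) served for gene order alone.

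Group differences were fitted with limma 3.58.1 in R 4.3.3 on all 12 arrays (8 residual and 3.14 prior degrees of freedom), with Benjamini-Hochberg adjusted p-values across the whole table and a threshold of 0.05, and the fit was tested on simulated data. The donor F-test had donor and condition as terms. The members and lists were chosen with earlier results of these data known. Named were the 6 genes, fixed relatives and check genes, up to 4 called genes of each list and the 3 nearest profiles. The neighbouring genes and the interaction were added after seeing the data. Donors were numbered and arrays paired by title. The 4 arrays titled donor 3 all carry the number 5 in their description codes, which leaves the pairing as it is but not the number settled. Deviations from group means correlated at 0.177 to 0.602 in 18 pairs of the same donor and at -0.44 to 0.1 in 36 pairs of different donors. Alternatives were a fixed and a random donor block, equal medians, quantile normalisation, no dim probe sets, an intensity trend, and leaving out each array or donor. A planned promoter motif search was not run, as no sequences were used here.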

Additional observations from a re-analysis of the deposited data

Results flagged for a closer look

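TRPM7 differed by -0.10 in mean between 2% and 21% oxygen without TGF-β3, with all 3 donors lower, and by 0.06 with TGF-β3, with all 3 donors higher. Donor 2 hardly moved without TGF-β3, from 9.77 at 21% to 9.76 at 2%. The difference between the settings was 0.17 ± 0.14 (limma interaction, adjusted p = 1.0), and both oxygen differences were within the overlap of the groups. The other named genes did not move in opposite directions in all donors, and groups of 3 arrays are too small for a test of single outlying arrays.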

How the results depend on the processing

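The oxygen differences of the 6 genes kept their direction under each alternative that held their probe set. Each gene had 1 direction in every donor and both settings, so leaving out a donor or blocking on donor could not have reversed it. Leaving out arrays or donors moved CNTNAP4 between 1.33 and 1.52 without and 0.54 and 0.73 with TGF-β3, and B4GALT6, whose donors stand apart, between -1.46 and -0.79 and between -1.05 and -0.51. The number of probe sets called for oxygen without TGF-β3 was 1, against 3 with donor as a replicate block, 0 when dim probe sets were left out, and 0 to 2 without single arrays or donors, with 0 without each donor. With TGF-β3 it was 0, against 6 with the replicate block and 0 to 2 without single arrays or donors. For TGF-β3 averaged over oxygen 2582 were called, against 3954 with the replicate block and 593 (without donor 2) to 2309 without single arrays or donors, with 826 without donor 1 and 1609 without donor 3. Of the 6 genes 3 were called for TGF-β3, against 1 to 4 without single arrays or donors, the 1 without donor 2 being RNASE4. The difference of SRL with TGF-β3, 0.11, lay between -0.00051 (without donor 3) and 0.17 when arrays or donors were left out. Probe sets with donor differences numbered 1213, and 1206 to 1774 under the alternatives run. For TGF-β3 the replicate block changed the call of B4GALT6 and of no other of the 6 genes. Among the relatives and neighbours, 11 of 25 oxygen differences in each setting changed sign under some alternative, all at or below 0.07 without and 0.13 with TGF-β3 in size. Each gene had 1 probe set, so averaging over probe sets changed nothing. Dim signals and 3 arrays per group limit what could be called.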

Other observations

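Of the genes beside or overlapping the 6 in the RefSeq order, limma called ANG, C8H9orf40 and ADCY9 for TGF-β3. The others were not called, where 9.64% of all probe sets were, and nothing is read from this about the neighbours as a group. C8H9orf40, next to TRPM6, rose by 0.54 ± 0.078 (limma, adjusted p = 0.00146), while TRPM6 itself was not called. ADCY9, an adenylyl cyclase gene next to SRL, fell by 0.39 ± 0.069 (adjusted p = 0.00522), while SRL was not called. Among the nearest profiles, FAH was lower with TGF-β3 by 0.51 ± 0.11 and ZBTB1 by 0.23 ± 0.058, and RPL10L, a dim signal, was higher by 0.25 ± 0.07. These genes were picked for profiles like those of PATJ, RNASE4 and B4GALT6 over the same arrays. Their TGF-β3 differences follow in part from that choice and are descriptions with no test.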
